A study of Danio rerio with 24 samples.

Results

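The SLC25 family comprises the mitochondrial carriers, the proteins that move metabolites, nucleotides and cofactors across the inner mitochondrial membrane, which is otherwise closed to them. Most are small, encoded in the nucleus and made in the cytosol. They reach the inner membrane through the outer-membrane translocase, the small chaperones of the intermembrane space and the TIM22 complex. In liver, carriers of this family link the mitochondrion to ATP supply, fatty acid oxidation, lipid synthesis, the urea cycle and one-carbon metabolism. The members described here are all gene rows of the joined count tables whose identifier maps to a symbol that starts with SLC25A, in any case. They are 59 of 32105 gene rows and carry 50 distinct symbols, 9 of which name 2 rows each. Rows that share a symbol are told apart by identifier only, because the reference table gives no separate names for them. Family proteins under other symbols (UCP1 to UCP3, MTCH1 and MTCH2) are not among the members. They are named in the list of other mitochondrial transporters.

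Liver RNA of 24 male zebrafish was sequenced, 1 library from each fish. Low-dose fish (n = 9) were of strain AB JxTu, 1 year old and labelled with rotenone, an inhibitor of respiratory complex I, at 3.75 nM. High-dose fish (n = 9) had the same strain and age, with rotenone at 37.5 nM. The 3-year fish (n = 6) also had 37.5 nM but were AB JxTu Tg(flk:mCherry), so age and the transgenic line cannot be told apart. Every group carried rotenone, and the labels used here name neither an untreated fish nor the duration of exposure. The counts of the low-dose fish stand in a table of their own, so dose and table cannot be told apart either. The numbers in the fish titles form a lower run (163 to 181) and an upper run (189 to 202) with no stated meaning. The lower run holds 4 low-dose, 4 high-dose and 2 three-year fish, the upper run 5, 5 and 4, and values within each run are given beside the pooled ones.

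Library totals ran from 24644663 to 45297644 counts. The 12 hepatocyte markers on the list, among them fabp10a and the fibrinogen genes, summed to 93010 to 268700 CPM (counts relative to the library total, scaled by TMM) in every fish. Intestinal transcripts differed between libraries. A score of them, the mean log2(CPM + 1) over the intestine list, was above 4 in 5 libraries (low-dose replicates 3, 6 and 8 and high-dose replicates 5 and 7) and 3.21 or lower in the others. Erythrocyte markers summed to 145 to 266 CPM in low-dose, 167 to 715 CPM in high-dose and 283 to 635 CPM in 3-year fish. Exocrine pancreas markers varied more, from 69.6 to 25619 CPM in low-dose, 208 to 15734 CPM in high-dose and 216 to 9854 CPM in 3-year fish. The part of pancreatic RNA in the carriers' values was not tested. In bulk RNA, fewer cells of a type and less RNA per cell cannot be told apart.

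Levels of different carriers were compared per length, as TMM-scaled CPM per kilobase of gene, with the gene lengths the authors used. One ADP/ATP carrier dominated these members. SLC25A5 (ENSDARG00000092553), which exchanges matrix ATP for cytosolic ADP, had a lowest, median and highest level of 1576, 2273 and 2720 in low-dose fish. In high-dose fish these values were 1477, 2326 and 2856, and in 3-year fish 1679, 2468 and 2991. The groups overlapped over nearly their whole range. SLC25A5 held 64.4% of the level summed over the members described here, and between 50.3% and 73.8% in single fish. It was the highest carrier in 24 of 24 fish, 5.64 times the level of the next.

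The second was SLC25A48 (ENSDARG00000021250), a choline importer in human cells, at a level of 413 and 11.4% of the sum. It varied widely, with a lowest, median and highest level of 43.5, 386 and 736 in low-dose fish, 269, 450 and 679 in high-dose fish and 243, 410 and 602 in 3-year fish. The lowest value belonged to low-dose replicate 5, which was the only fish in which SLC25A48 was below SLC25A3. The next carrier was SLC25A3 (ENSDARG00000025566), the phosphate carrier that feeds ATP synthase, with means of 214 ± 41.7, 196 ± 27.9 and 194 ± 30.4 (SD) in low-dose, high-dose and 3-year fish. These 3 genes made up 79.6 ± 1.82% of the summed level in low-dose fish, 81.7 ± 2.74% in high-dose fish and 82.3 ± 5.07% in 3-year fish. The summed level itself was 3570 ± 566, 3608 ± 557 and 3674 ± 265.

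Only 1 more carrier had a mean level of 100 or more, 14 lay between 10 and 100, 21 between 1 and 10 and 20 below 1. SLC25A25 (ENSDARG00000010572), a calcium-regulated ATP-Mg/phosphate carrier, came next at 101. SLC25A20 (ENSDARG00000040401), which imports acylcarnitines for fatty acid oxidation, followed at 64.6. Then came SLC25A32 (ENSDARG00000089791, folate and FAD transport) at 56.6, SLC25A1 (ENSDARG00000076381, citrate export for lipid synthesis) at 49.5 and SLC25A38 (ENSDARG00000059805, glycine import for heme synthesis) at 42.2. SLC25A33 (ENSDARG00000039931), a pyrimidine nucleotide carrier, had 41.7 and SLC25A10 (ENSDARG00000025074), the dicarboxylate carrier, 37.6. From SLC25A25 down, neighbours in this order were not separated in every fish: SLC25A25 was above SLC25A20 in 16 of 24 fish, SLC25A32 above SLC25A1 in 11 and SLC25A38 above SLC25A33 in 8. The 10 carriers together held 90.9 ± 1.76%, 93.0 ± 0.773% and 92.5 ± 1.05% of the summed level in low-dose, high-dose and 3-year fish. Among the 39 carriers with a level of 1 or more, the median coefficient of variation between fish was 41.4% in low-dose, 30.0% in high-dose and 27.1% in 3-year fish.

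**Figure D1:**
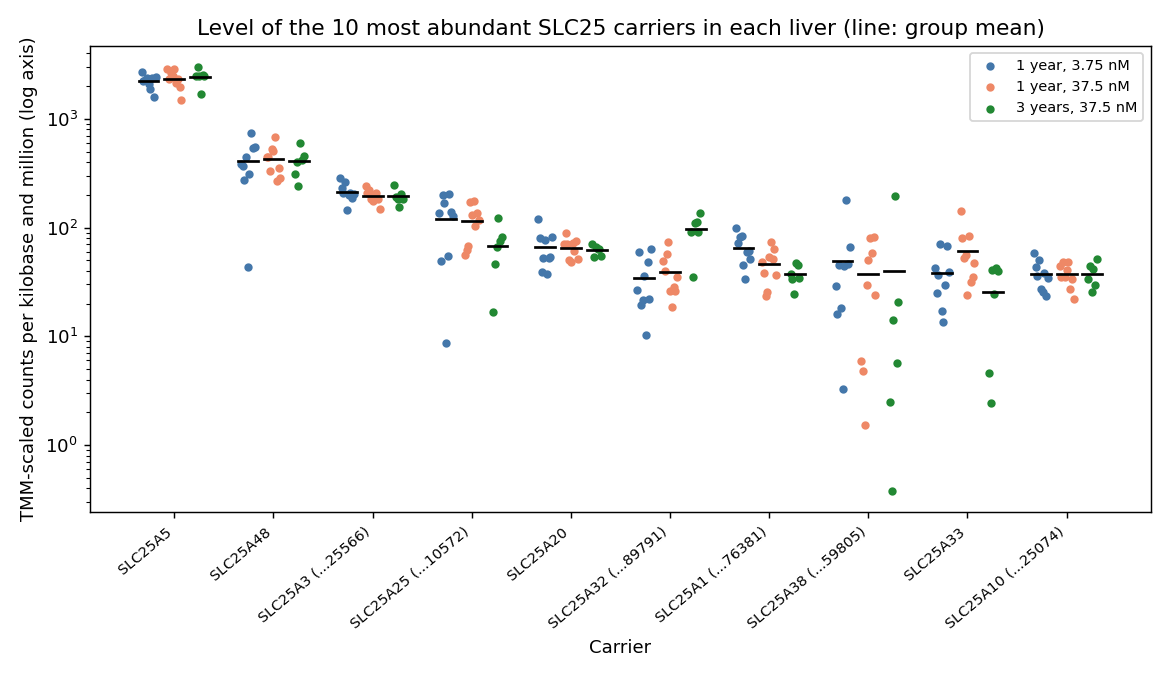
Level of the 10 most abundant SLC25 carriers in each liver (TMM-scaled CPM per kilobase, log axis; points are fish, lines are means of 9 low-dose, 9 high-dose and 6 three-year fish). SLC25A5 stands above all others in every fish, and SLC25A38 (ENSDARG00000059805) spreads from 0.379 to 194.

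The rest of each role list was led by a less abundant gene. slc25a39 (ENSDARG00000007449), a glutathione carrier in mammals, led the iron and glutathione group at 23.0. SLC25A27 (ENSDARG00000042873), related to the uncoupling proteins, led that group at 5.02. SLC25A46 (ENSDARG00000035181), an outer-membrane protein of mitochondrial dynamics, had 3.96, with values from 3.51 to 5.87 in low-dose, 3.01 to 4.62 in high-dose and 2.64 to 4.62 in 3-year fish. As a share of the summed level, ADP/ATP and phosphate carriers held 68.5 ± 5.76%, 70.0 ± 4.89% and 71.2 ± 8.57% in low-dose, high-dose and 3-year fish. The amino acid list, which here includes SLC25A48, held 14.5 ± 5.43%, 14.2 ± 3.23% and 13.3 ± 6.05%. Nucleotide and cofactor carriers held 4.30 ± 1.16%, 5.05 ± 1.1% and 6.01 ± 1.79%, and organic acid carriers 4.64 ± 0.700%, 3.83 ± 0.778% and 3.98 ± 0.855%.

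Some carriers were close to absent (these, and the relatives set beside them, were picked out after their values were seen). SLC25A13 (ENSDARG00000099353), the aspartate/glutamate carrier of mammalian liver known as citrin, had a mean level of 0.00836 and no count in 14 of 24 fish, and its highest count in any fish was 3. SLC25A12 (ENSDARG00000102362), which does the same exchange and is the main form in mammalian brain and muscle, had 5.17. SLC25A37 (ENSDARG00000073743), mitoferrin 1 of red blood cell precursors, had 0.101, against 10.2 for SLC25A28 (ENSDARG00000052994), mitoferrin 2. SLC25A6 (ENSDARG00000005853), another ADP/ATP carrier, had 0.0551. slc25a22b (ENSDARG00000058336) had no count in any fish.

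SLC25A4 (ENSDARG00000027355), the ADP/ATP carrier of mammalian heart and skeletal muscle, had a median level of 0.0142 over all fish but 9.42 in high-dose replicate 5, 4.27 in low-dose replicate 6 and 3.26 in 3-year replicate 1. Summed skeletal muscle markers in those 3 libraries were 803, 3.44 and 226 CPM, and 45.3 CPM or less in every other library. slc25a24 (ENSDARG00000008568), an ATP-Mg carrier, was highest at 7.40 in low-dose replicate 6, 6.86 in high-dose replicate 7, 4.03 in low-dose replicate 3 and 3.72 in low-dose replicate 8. These are 4 of the 5 libraries with an intestine score above 4, and the fifth had 2.06. Libraries of lower score reached higher slc25a24 levels than that: 2.98 in high-dose replicate 9 (score 1.74), 2.42 in 3-year replicate 6 (score 1.76) and 2.1 in 3-year replicate 2 (score 1.42). SLC25A23 (ENSDARG00000024708), of the same type, had its highest levels, 2.30 and 1.75, in high-dose replicate 7 and low-dose replicate 6 and no count in 13 fish. The part of other tissue in these values was not tested.

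The dose comparison set high-dose against low-dose fish at 1 year (37.5 nM minus 3.75 nM). After the filter on low counts, 47 of the 59 carriers were tested, and 7 fell and 0 rose (edgeR quasi-likelihood test, Benjamini-Hochberg over all genes, threshold 0.05). That is 14.9% of the carriers tested, where 11.4% of all 15465 tested genes passed, 3.19% higher and 8.19% lower. The 7 were spread over 4 roles: relatives of uncoupling proteins, amino acid carriers, a cofactor carrier and a carrier named after one of mammalian liver. None of the 10 most abundant carriers was among them. The median log2 change of the tested carriers was −0.20, beside 0.03 over all genes, and 17 had an unadjusted p below 0.05 where 28.0% of all genes did. No carrier had groups that did not overlap, a pattern shown by 0.0711% of all genes with higher and 0.155% with lower values.

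SLC25A27, known as uncoupling protein 4 in mammals, moved most. Its lowest, median and highest values were 2.53, 19.5 and 48.0 CPM in low-dose fish and 2.08, 3.73 and 4.94 CPM in high-dose fish. Low-dose replicates 1 to 5 lay between 19.5 and 48.0 CPM, while low-dose replicates 6 to 9 lay between 2.53 and 4.78 CPM, within the range of the high-dose group. The log2 change was −2.32 ± 0.49 (estimate ± SE, adjusted p = 0.00883), and 3 of 9 high-dose fish were below every low-dose fish. The second relative of uncoupling proteins, slc25a14 (ENSDARG00000026680), ranged from 9.45 through 11 to 16.3 CPM in low-dose fish and from 7.26 through 9.01 to 10.3 CPM in high-dose fish. It fell by 0.40 ± 0.11 on the log2 scale (adjusted p = 0.0310), with 6 of 9 high-dose fish below every low-dose fish.

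In the amino acid list, which here includes SLC25A48, 3 of 11 tested rows fell, where 8.19% of all tested genes did. SLC25A12 had a lowest, median and highest value of 10.8, 25.0 and 33.8 CPM in low-dose and 9.81, 11.1 and 19.1 CPM in high-dose fish. Low-dose replicates 1 to 6 were at 20.5 CPM or more, above the whole high-dose group, and low-dose replicates 7 to 9 were among the high-dose values. The log2 change was −0.89 ± 0.23 (adjusted p = 0.0195). SLC25A38 (ENSDARG00000074533), the scarcer of the 2 rows named for the glycine carrier, had 2.02, 5.04 and 9.30 CPM in low-dose and 2.10, 2.53 and 3.22 CPM in high-dose fish, a change of −1.01 ± 0.26 (adjusted p = 0.0213). The abundant row of that name (ENSDARG00000059805) changed by −0.40 ± 0.70 and did not pass (adjusted p = 0.748). SLC25A44 (ENSDARG00000045927), of the branched-chain amino acid carrier type, had 1.98, 3.58 and 5.38 CPM in low-dose and 1.51, 2.52 and 2.95 CPM in high-dose fish, a change of −0.60 ± 0.18 (adjusted p = 0.0385). The more abundant row of that name (ENSDARG00000035905, named after its values were seen) changed by −0.84 ± 0.31 and did not pass (adjusted p = 0.0865). In the lower run ENSDARG00000035905 changed by −1.46 ± 0.24 (adjusted p = 0.00218) and in the upper run by 0.00 ± 0.32 (both edgeR). The direct test of that difference did not pass (adjusted p = 0.0610).

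The remaining 2 were SLC25A26 and slc25a47b. SLC25A26 (ENSDARG00000058208), which brings S-adenosylmethionine into the matrix, had 6.05, 9.96 and 12.1 CPM in low-dose and 5.09, 6.32 and 8.22 CPM in high-dose fish, a change of −0.49 ± 0.13 (adjusted p = 0.0250). slc25a47b (ENSDARG00000102071) carries the name of a carrier largely confined to liver in mammals. It had 0.402, 1.49 and 4.30 CPM in low-dose and 0.445, 0.796 and 1.38 CPM in high-dose fish, and low-dose replicates 1 and 4 stood above 4 CPM. Its change was −1.15 ± 0.36 (adjusted p = 0.0455), and the groups overlapped over most of their range. The row SLC25A47 (ENSDARG00000059923), named after its values were seen, had the opposite sign. Its means were 2.84 CPM in low-dose and 3.97 CPM in high-dose fish, a change of 0.51 ± 0.32 that did not pass (adjusted p = 0.308). For SLC25A47 the lower run gave 1.41 ± 0.36 (adjusted p = 0.0175) and the upper run −0.10 ± 0.37 (adjusted p = 0.975, all edgeR). The direct test of a difference between the runs gave −1.56 ± 0.56 for SLC25A47 and did not pass (adjusted p = 0.110, edgeR).

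**Figure D2:**
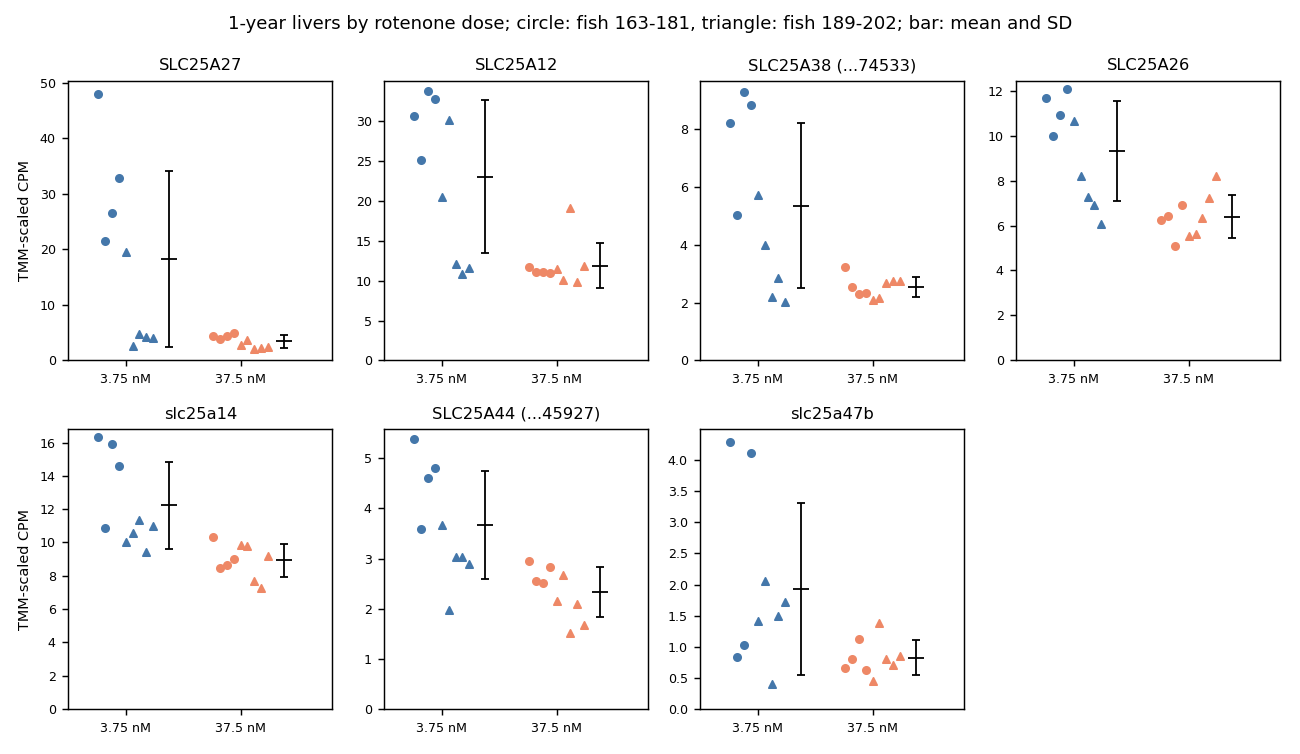
The 7 carriers that fell in the dose comparison, in TMM-scaled CPM per fish (circles fish 163 to 181, triangles fish 189 to 202, bars mean and SD of 9 fish a group). For SLC25A27 the low-dose group splits into 5 fish at 19.5 CPM or more and 4 at 4.78 CPM or less, beside the high-dose group.

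SLC25A27 and SLC25A12 stayed past the threshold whichever of the 18 libraries was left out (highest adjusted p 0.0212 and 0.0456). SLC25A38 (ENSDARG00000074533) did not pass without low-dose replicate 3 (0.0509) or 4 (0.0514), nor SLC25A26 without any of low-dose replicates 1 to 4 (0.0608 at most). slc25a14 lost its call without high-dose replicate 2, 3, 4 or 8 or low-dose replicate 1, 3 or 4 (0.0680 at most). SLC25A44 (ENSDARG00000045927) lost it without high-dose replicate 2, 3, 5, 7, 8 or 9 or low-dose replicate 1, 2, 3, 4 or 5 (0.0828 at most). slc25a47b lost it without high-dose replicate 1, 2, 3, 4, 5, 7, 8 or 9 or low-dose replicate 1, 3, 4, 5 or 6 (0.108 at most). Without the 5 libraries of intestine score above 4, a limit chosen after the data were seen, 2 carriers still passed, SLC25A27 and SLC25A12. With the limit at 2, only SLC25A27 passed, and SLC25A12 had a change of −1.03 (adjusted p = 0.0619). Without the filter on low counts 3 passed, SLC25A27, SLC25A12 and SLC25A38 (ENSDARG00000074533). Over all genes these fits called, in that order, 1275 of 15475, 169 of 15682 and 1131 of 26228. Erythrocyte markers moved with dose: 5 of 13 tested rose and 0 fell, with a median log2 change of 1.02. Over all tested genes 3.19% rose and 8.19% fell. The part of erythrocyte RNA in the carriers' values was not tested.

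All 7 carriers had a negative estimate within both fish number runs. In the lower run 6 of them passed, and in the upper run 0 did. The 7 were picked in the pooled fit of these same fish, so the shared sign is not independent support. None of the 7 passed the direct test of a difference between the runs described below (edgeR, adjusted p from 0.123 to 0.891). Among fish 163 to 181 (4 against 4), SLC25A27 changed by −2.74 ± 0.23 (adjusted p = 0.000179) and SLC25A12 by −1.34 ± 0.12 (adjusted p = 0.000231, both edgeR). Among fish 189 to 202 (5 against 5) the changes were −1.36 ± 0.51 (adjusted p = 0.587) and −0.42 ± 0.33 (adjusted p = 0.829). There the SLC25A27 values were 2.53 to 19.5 CPM in low-dose and 2.08 to 3.73 CPM in high-dose fish. Low-dose replicate 5 alone gave the high end and stood far above the other low-dose fish of that run. SLC25A38 (ENSDARG00000074533) changed by −1.48 ± 0.23 in the lower and −0.39 ± 0.29 in the upper run, and SLC25A26 by −0.74 ± 0.13 and −0.21 ± 0.19. For SLC25A44 (ENSDARG00000045927) the estimates were −0.64 ± 0.16 and −0.50 ± 0.22, and for slc25a14 −0.54 ± 0.15 and −0.23 ± 0.13. slc25a47b had −1.53 ± 0.55 and −0.73 ± 0.43, and its adjusted p in the lower run was 0.0625. In the lower run 17 of 46 tested carriers passed, 4 higher and 13 lower. Those shares stand beside a background of 34.8% of all genes, 17.3% higher and 17.5% lower. In the upper run 0 of 47 passed, as did 0.0% of all 16034 genes. There 2 carriers (SLC25A27 and SLC25A44, ENSDARG00000045927) and 7.6% of all genes had an unadjusted p below 0.05.

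A direct test of whether the dose change differed between the number runs called 6 of 51 tested carriers (11.8%), beside 6.33% of all genes, 1.76% higher and 4.57% lower, and 21.7% at an unadjusted p below 0.05. A positive value here means a more positive dose change in the upper run. SLC25A25 (ENSDARG00000035468), the scarce row of the ATP-Mg carrier, lay at 1.29 to 2.13 CPM in low-dose and 0.180 to 0.443 CPM in high-dose fish of the lower run, so the groups were apart. In the upper run they overlapped, at 0.367 to 1.01 and 0.285 to 1.22 CPM. The difference was 2.58 ± 0.55 on the log2 scale (adjusted p = 0.0134). SLC25A1 (ENSDARG00000076381), the citrate carrier, had 94.1 to 131 CPM against 30.9 to 63.3 CPM in the lower run and 44.6 to 80.0 against 48.6 to 96.4 CPM in the upper run, a difference of 1.31 ± 0.35 (adjusted p = 0.0371). slc25a22a (ENSDARG00000020718), a glutamate carrier, had 15.8 to 32.5 CPM against 6.86 to 12.5 CPM in the lower run and 5.33 to 12.4 against 7.0 to 14.2 CPM in the upper run, a difference of 1.49 ± 0.42 (adjusted p = 0.0461).

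The other 3 were higher at the high dose in the lower run. SLC25A17 (ENSDARG00000061684), a peroxisomal carrier of cofactors, lay at 5.63 to 11.6 CPM in low-dose and 18.4 to 23.5 CPM in high-dose fish there, and at 8.36 to 15.9 and 7.74 to 13.5 CPM in the upper run, a difference of −1.43 ± 0.33 (adjusted p = 0.0188). SLC25A42 (ENSDARG00000099368), which carries coenzyme A, lay at 32.0 to 57.9 against 91.3 to 132 CPM in the lower run and 45.2 to 133 against 56.6 to 130 CPM in the upper run, a difference of −1.69 ± 0.42 (adjusted p = 0.0283). SLC25A36 (ENSDARG00000038731), a pyrimidine nucleotide carrier, lay at 10.2 to 73.0 against 105 to 142 CPM in the lower run and 126 to 342 against 73.5 to 203 CPM in the upper run, a difference of −2.62 ± 0.69 (adjusted p = 0.0348).

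**Figure D3:**
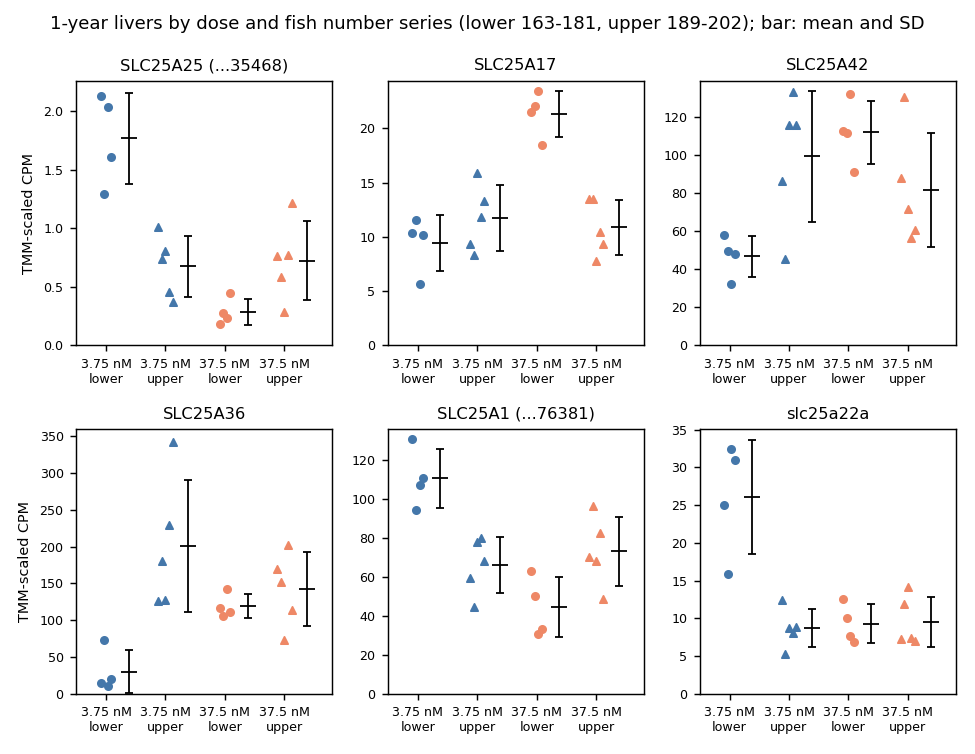
The 6 carriers whose dose change differed between fish number runs, in TMM-scaled CPM per 1-year fish (4 low-dose and 4 high-dose fish of the lower run, 5 and 5 of the upper run; bars mean and SD). The low-dose fish of the lower run lie above the other 3 sets for SLC25A25 (ENSDARG00000035468) and slc25a22a, and their highest SLC25A36 value (73.0 CPM) is just below the lowest of the other sets (73.5 CPM). The high-dose fish of that run lie above the other sets for SLC25A17.

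None of these 6 differences passed without the 5 libraries of intestine score above 4, where the adjusted p ran from 0.0665 to 0.182 and 80 genes were called in all. The estimates there kept their sign, for example 2.71 for SLC25A25 (ENSDARG00000035468) and −2.11 for SLC25A36. SLC25A25 passed with any 1 of the 18 libraries left out (0.0346 at most). SLC25A17 did not pass without high-dose replicate 1, 2 or 3 or low-dose replicate 3 or 4 (0.0653 at most), and SLC25A1 without high-dose replicate 5, 6 or 8 or low-dose replicate 9 (0.0624 at most). SLC25A42 did not pass without high-dose replicate 1, 2 or 3 or low-dose replicate 3, 4, 7, 8 or 9 (0.0826 at most). SLC25A36 was lost without any of high-dose replicates 1 to 5, 7 or 9 or low-dose replicate 1, 3, 4, 8 or 9 (0.0951 at most). slc25a22a was lost without high-dose replicate 2, 3, 4, 6, 7 or 8 or low-dose replicate 3, 4, 7, 8 or 9 (0.0748 at most).

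The age comparison set 3-year against 1-year fish, all at 37.5 nM (3 years minus 1 year). Of 48 carriers tested, 1 rose and 1 fell, 4.17% beside 1.72% of all 16159 genes (0.897% higher and 0.823% lower). By upper-quartile scaling the calls over all genes split into 242 higher and 126 lower, beside 145 and 133 by TMM. The median log2 change of the carriers was −0.08, with 31 estimates below 0 and 17 above, whereas upper-quartile scaling gave 24 above 0. An unadjusted p below 0.05 was reached by 10 carriers, beside 18.8% of all genes. High-dose 1-year fish serve in both the dose and the age comparison, so the estimates of the 2 comparisons are not independent.

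SLC25A32 (ENSDARG00000089791), the abundant row of the folate and FAD carrier, was higher in 3-year fish. Its lowest, median and highest values were 70.3, 132 and 280 CPM at 1 year and 134, 382 and 511 CPM at 3 years, and 5 of 6 three-year fish lay above every 1-year fish. The exception was 3-year replicate 2. The log2 change was 1.27 ± 0.31 (adjusted p = 0.0491). Among fish 189 to 202 the 3-year values of 345 to 511 CPM stood clear of the 1-year values of 70.3 to 132 CPM, and the change there was 2.04 ± 0.21 (adjusted p = 0.0105, 4 against 5 fish), in a fit that called 0.181% of all genes. The lower run held only 2 three-year fish, at 134 and 342 CPM, beside 151 to 280 CPM in the 1-year fish. The other row of that symbol (ENSDARG00000026835, named after its values were seen) changed by −0.06 ± 0.16 with age (adjusted p = 0.882).

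slc25a22a, the glutamate carrier, was lower in 3-year fish. It had 6.86, 7.67 and 14.2 CPM at 1 year and 3.94, 4.63 and 7.78 CPM at 3 years, with 5 of 6 three-year fish below every 1-year fish. The log2 change was −0.91 ± 0.21 (adjusted p = 0.0415), and in the upper run alone it was −0.89 ± 0.30 (adjusted p = 0.231). SLC25A38 (ENSDARG00000074533) was the only carrier with groups that did not overlap, at 2.10 to 3.22 CPM at 1 year and 1.14 to 2.03 CPM at 3 years. Over all genes 0.520% were separated in this way with lower and 0.427% with higher values. Its change of −0.55 ± 0.15 did not pass (adjusted p = 0.0743).

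Both age calls were near the threshold. SLC25A32 kept its call in only 3 of 15 fits with 1 library left out, those without 1-year replicate 3 or 4 or 3-year replicate 2 (adjusted p 0.109 at most in the others). slc25a22a kept its call in 5 of 15, those without 1-year replicate 3, 4, 8 or 9 or 3-year replicate 4 (0.0993 at most in the others). Without the 2 libraries of intestine score above 4 in this comparison neither passed (adjusted p = 0.106 and 0.0621).

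**Figure D4:**
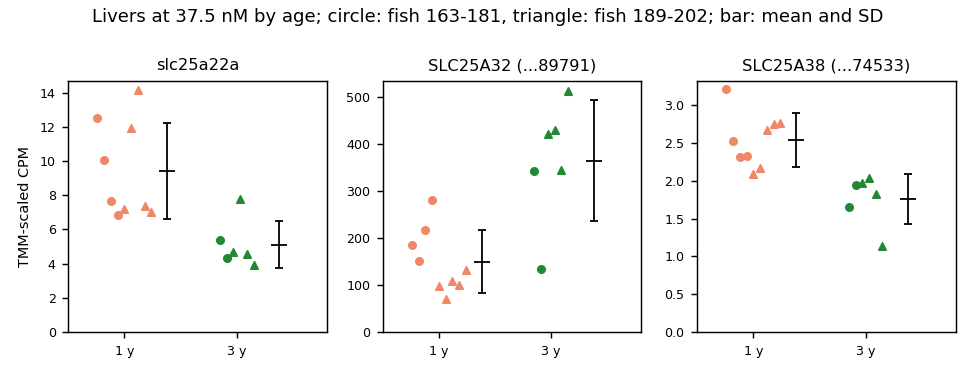
The 2 carriers called with age and SLC25A38 (ENSDARG00000074533), in TMM-scaled CPM per fish at 37.5 nM (9 fish at 1 year and 6 at 3 years; circles fish 163 to 181, triangles fish 189 to 202, bars mean and SD). Of the 3, SLC25A38 alone has groups that do not overlap, from 2.10 CPM upward at 1 year and up to 2.03 CPM at 3 years.

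SLC25A5, the dominant carrier, passed in neither comparison. It changed by 0.12 ± 0.13 with dose (adjusted p = 0.582) and 0.03 ± 0.16 with age (adjusted p = 0.937). SLC25A3 (ENSDARG00000025566) changed by −0.07 ± 0.12 and −0.04 ± 0.12, and SLC25A20 by 0.04 ± 0.20 and −0.09 ± 0.14. For SLC25A48 the estimates were 0.11 ± 0.34 and −0.10 ± 0.23, and for SLC25A10 (ENSDARG00000025074) 0.06 ± 0.18 and −0.01 ± 0.19. SLC25A46 changed by −0.20 ± 0.11 with dose and 0.00 ± 0.13 with age. None of these passed.

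Several abundant carriers had a wide spread within each group. SLC25A38 (ENSDARG00000059805) had 4.88, 66.1 and 267 CPM in low-dose, 2.31, 44.9 and 123 CPM in high-dose and 0.569, 14.9 and 291 CPM in 3-year fish, and its age estimate was 0.05 ± 1.06. SLC25A33 had 23.0, 62.3 and 120 CPM in low-dose, 40.5, 89.9 and 243 CPM in high-dose and 4.13, 54.6 and 71.8 CPM in 3-year fish. The 2 three-year fish of the lower run were at 4.13 and 7.89 CPM and the 4 of the upper run at 41.9 to 71.8 CPM. SLC25A33 changed by 0.75 ± 0.36 with dose (adjusted p = 0.177) and −1.26 ± 0.57 with age (adjusted p = 0.251). SLC25A25 (ENSDARG00000010572) ranged from 28.1 to 649 CPM in low-dose, 180 to 569 CPM in high-dose and 53.4 to 398 CPM in 3-year fish. Its estimates were −0.04 ± 0.41 with dose and −0.76 ± 0.38 with age, and neither passed. slc25a39 ranged from 11 to 185 CPM in low-dose, 13.6 to 74.7 CPM in high-dose and 14.3 to 137 CPM in 3-year fish, with estimates of −1.07 ± 0.52 and 0.96 ± 0.46 (adjusted p = 0.184 and 0.275).

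**Figure D5:**
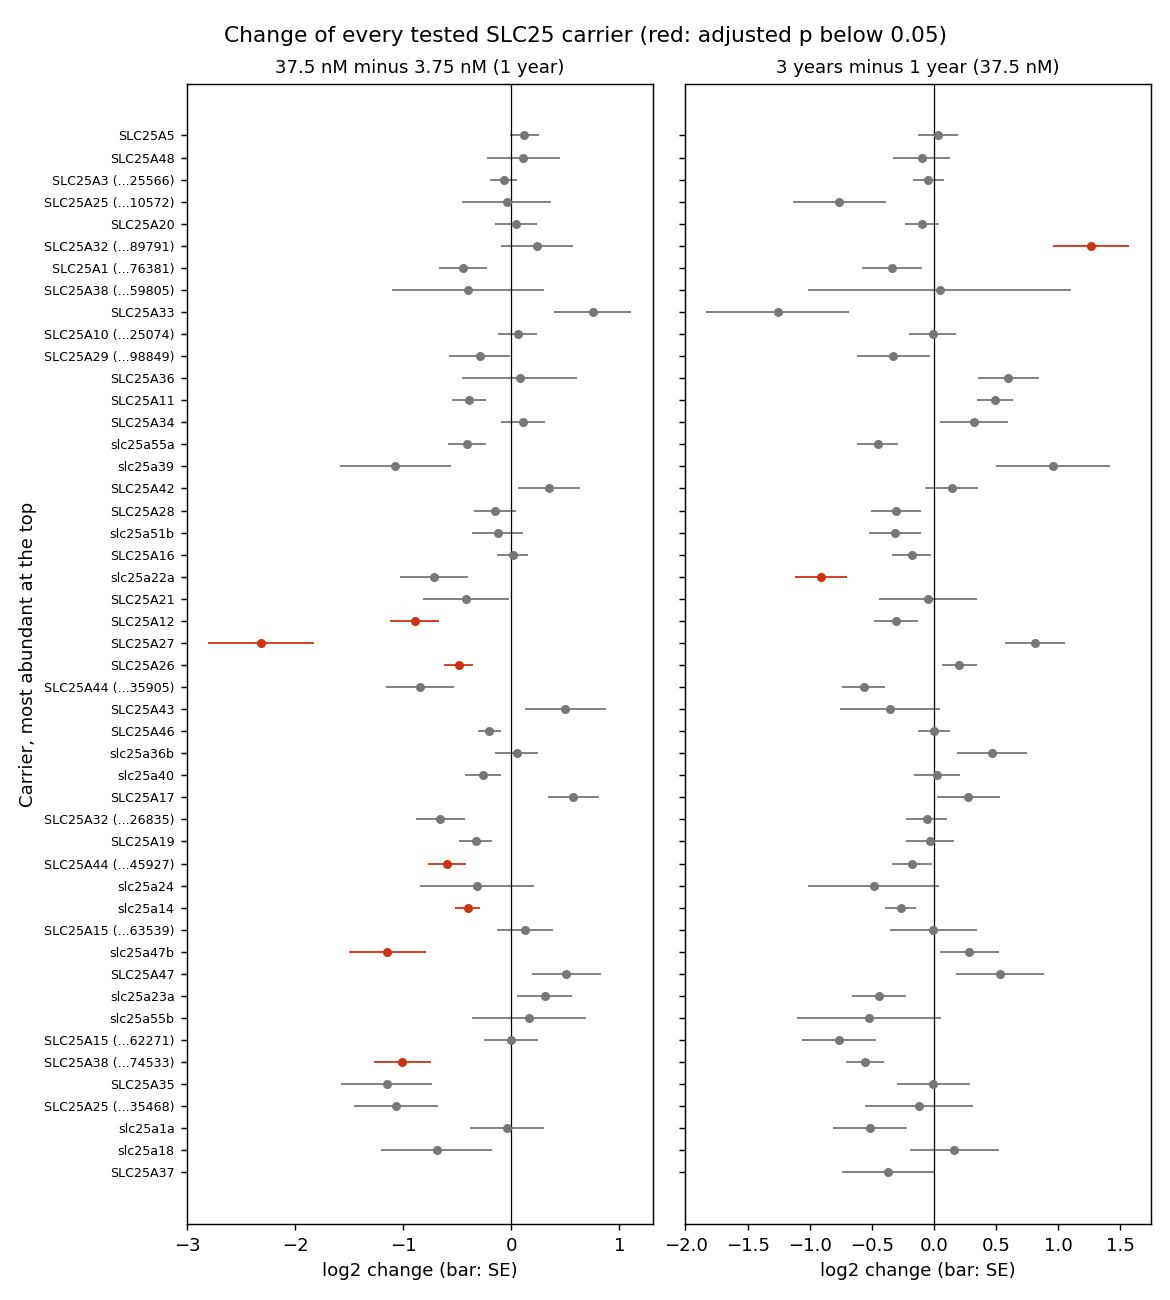
Log2 change with SE of every tested SLC25 carrier, ordered by level with the most abundant at the top, for dose (left, 47 carriers) and age (right, 48 carriers), with red points past the threshold of 0.05. The 7 carriers called with dose have estimates from −2.32 to −0.40, and the most abundant carrier is close to 0 in both panels.

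By role, the dose comparison called 2 of 2 tested relatives of uncoupling proteins, with a median log2 change of −1.36 (estimates −2.32 and −0.40). UCP1 to UCP3 themselves are named in the list of other mitochondrial transporters, where 0 of 13 tested genes passed. In the amino acid list, which includes SLC25A48, 3 of 11 passed, with a median of −0.60. Over all tested genes 11.4% passed with dose, 3.19% higher and 8.19% lower, and no role list was tested as a set. The dose comparison also called 1 of 3 in the acylcarnitine list that holds slc25a47b (median 0.04) and 1 of 12 nucleotide and cofactor carriers (median 0.06). Of 7 organic acid carriers none passed (median −0.40), nor did any of 4 ATP-Mg carriers (median −0.18), 3 iron and glutathione carriers (median −0.26) or 2 ADP/ATP and phosphate carriers (median 0.03). With age, 1 of 12 nucleotide and cofactor carriers rose (median 0.06). In the amino acid list 1 of 11 fell (median −0.31), and no other role list had a call. Over all tested genes 1.72% passed with age. The 40 carriers not called with dose had dose estimates from −1.15 to 0.75, and the 46 not called with age had age estimates from −1.26 to 0.96. A total of 8 members entered no test because too few fish had enough counts. Among them SLC25A4 reached 758 counts in high-dose replicate 5 and had no count in 9 fish.

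Most genes listed for the import route of these carriers were lower at the high dose in the pooled comparison. The route as listed takes in genes of the outer-membrane translocase, the small chaperones and the TIM22 complex. The list was written with earlier results of these data known, so its count is not an independent test. Of 17 genes of the import list, all tested, 14 fell, 0 rose and 3 did not pass, with a median log2 change of −0.98, where 8.19% of all tested genes fell. TOMM22 (ENSDARG00000045146), a receptor of the outer-membrane translocase, had 12.7, 22.8 and 53.3 CPM in low-dose and 8.95, 9.83 and 12.2 CPM in high-dose fish. All 9 high-dose fish thus lay below all 9 low-dose fish for TOMM22, as was so for 0.155% of all genes. Its log2 change was −1.49 ± 0.27 (adjusted p = 0.00663). TIMM8B (ENSDARG00000055708) and TIMM8A (ENSDARG00000023672), small chaperones of the intermembrane space, fell by 1.14 ± 0.21 (adjusted p = 0.00682) and by 1.12 ± 0.24 (adjusted p = 0.00962) on the log2 scale. TIMM22 (ENSDARG00000091413), the channel through which carriers are inserted, was named after its values were seen and fell by 1.19 ± 0.27 (adjusted p = 0.0114).

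For the same list, leaving out 1 library at a time left 13 or 14 genes below the threshold, and leaving out the libraries of intestine score above 4 left 13. Without the larger set of libraries with a score above 2, 1 gene passed (TIMM8B), and the median was −0.85. In that fit 169 of all 15682 tested genes passed. In the lower number run 14 of 17 fell (median −1.23), where 17.5% of all genes did. In the upper run 0 passed, as did 0.0% of all 16034 genes, and 15 of 17 estimates were negative (median −0.49). TOMM22 changed by −2.08 ± 0.15 in the lower run (adjusted p = 0.000134) and by −0.68 ± 0.21 in the upper run (adjusted p = 0.554). With age 0 of 17 passed, and the median was 0.18.

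Enzymes that use the carriers' substrates were read beside the 11.4% of all genes that passed with dose, 3.19% higher and 8.19% lower. In the malate, aspartate and citrate list 12 of 14 tested genes had a negative dose estimate, with a median log2 change of −0.55. In the lower number run 7 of 14 fell (median −0.99), where 17.5% of all genes did. In the upper run 0 passed, as did 0.0% of all genes, and 8 of 14 estimates were negative (median −0.05). Of this list, FASN (ENSDARG00000087657), fatty acid synthase, had 403, 1098 and 14312 CPM in low-dose and 254, 542 and 1196 CPM in high-dose fish. It changed by −2.84 ± 0.72 (adjusted p = 0.0195). In the lower number run FASN changed by −3.95 ± 0.61 and passed. In the upper run the estimate was 0.14 ± 0.37, which did not pass and had the opposite sign. With the number run as a covariate FASN changed by −1.62 and did not pass (adjusted p = 0.127). In the carnitine and fatty acid oxidation list 1 of 17 rose: CROT (ENSDARG00000040352), a peroxisomal carnitine transferase, went from 80.2 ± 33.1 to 130 ± 25.1 CPM and changed by 0.73 ± 0.23 (adjusted p = 0.0463). In the heme and iron-sulfur list 1 of 19 rose and 1 fell, with a median of −0.34, beside a median of 0.02 in the carnitine list. In the lower run 3 genes of the heme list rose and 8 fell, where 17.3% and 17.5% of all genes did. alas2 (ENSDARG00000038643), the erythroid enzyme that starts heme synthesis and one of the erythrocyte markers, changed by 1.17 ± 0.35 (adjusted p = 0.0385), and UROD (ENSDARG00000006818), a later enzyme of the pathway, by −0.52 ± 0.15 (adjusted p = 0.0313). In the lower and the upper run CROT had estimates of 1.25 ± 0.17 and 0.48 ± 0.27, alas2 of 0.58 ± 0.29 and 1.55 ± 0.51, and UROD of −0.67 ± 0.17 and −0.31 ± 0.15. Of these, CROT and UROD passed in the lower run and none passed in the upper run, where 0.0% of all genes did. CROT kept its call in only 3 of 18 fits with 1 library left out, those without low-dose replicate 7, 8 or 9 (adjusted p 0.0928 at most in the others). UROD lost its call without high-dose replicate 2, 5, 6, 8 or 9 or low-dose replicate 1, 2, 3 or 4 (0.0656 at most), and alas2 without high-dose replicate 5, 6, 8 or 9 or low-dose replicate 1, 3, 4, 5 or 6 (0.0810 at most). None of the 3 passed without the filter on low counts or without the libraries of intestine score above 4, where the adjusted p of CROT was 0.0636, of UROD 0.0915 and of alas2 0.0531.

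In the one-carbon and cofactor list 1 of 13 tested genes passed in each comparison, and it was the same gene. Over all genes 11.4% passed with dose and 1.72% with age. The medians of the list were −0.18 with dose and −0.04 with age. MTHFD1 (ENSDARG00000040492), the cytosolic folate enzyme, had means of 308 ± 107 CPM in low-dose, 194 ± 35.9 CPM in high-dose and 297 ± 31.8 CPM in 3-year fish. Its log2 change was −0.60 ± 0.19 with dose (adjusted p = 0.0422) and 0.59 ± 0.13 with age (adjusted p = 0.0268), with 5 of 6 three-year fish above every 1-year high-dose fish. Within the runs its dose estimate was −0.74 ± 0.19 in the lower (adjusted p = 0.0162) and −0.41 ± 0.25 in the upper (adjusted p = 0.767). The dose call was kept in 5 of 18 fits with 1 library left out, those without high-dose replicate 1 or low-dose replicate 6, 7, 8 or 9 (adjusted p 0.0896 at most in the others). The age call was lost without 1-year replicate 2, 5 or 7 or 3-year replicate 2, 3, 5 or 6 (0.0856 at most). Neither passed without the filter on low counts (0.0742 with dose, 0.0632 with age) or without the libraries of intestine score above 4 (0.0524 and 0.0832). In the upper run alone the age change was 0.67 (adjusted p = 0.135), and by upper-quartile scaling the dose call was lost (0.0536). None of 18 tested genes of the urea and amino acid list passed in either comparison (median −0.21 with dose, 0.09 with age), nor did any of 13 other mitochondrial transporters (median −0.02 and −0.04). With age no gene of the malate, carnitine or heme lists passed (medians 0.04, 0.04 and 0.01).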

How the data were processed

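The authors deposited raw counts per gene for 24 libraries in 2 tables, and tables of values they named RPKM. Per the submitters' processing notes, CASAVA 1.8.2, STAR 2.4.1d, featureCounts 1.4.6-p4 and the build GRCz10 were used. The annotation and the strand setting are not given in the sources used here, so overlapping and antisense genes, and near-identical copies that share a symbol, could trade reads. In the deposited RPKM values the library divisors were found to run down the rows with a period of 44 instead of across the columns. Those values were therefore not compared between fish. They served to recover the gene lengths, of which 99.97% of 3877 with large enough values lay within 0.1 of a whole base.

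Symbols came from the reference gene-name table by Ensembl identifier (26269 of 32105 rows). TMM scaling and filterByExpr came before the test, which was edgeR 4.0.16 (quasi-likelihood, two-sided, R 4.3.3) on the groups of each comparison alone. Adjustment was by Benjamini-Hochberg over every gene tested, at 0.05. The SE of a change was derived from its size and its F value. Tables were summarised with Python 3.11.15 and pandas 2.3.3. Alternatives used other scalings and filters, DESeq2 1.42.0, voom with quality weights (limma 3.58.1), the fish number runs, and fewer libraries. p-values measure the spread between the fish used, and nothing in the labels says how they were housed.

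Library totals of 24644663 to 45297644 counts leave members with a handful of counts imprecise, and these were described and not tested. In all 87 pairs of replicates the counts differed far beyond sampling noise (lowest chi-square per gene 89.3). On simulated counts the dose test (15351 genes) recovered 23.7% of genes changed by 1 on the log2 scale and 91.7% of those changed by 2, with 5 false among 115 calls. The age test (16013 genes) recovered 17% and 88.5%, with 5 false among 107 calls. The simulation gave all genes the same dispersion and held no number runs and no differences in intestinal RNA. Its rates therefore need not hold for the real counts. Members, gene lists and tests were chosen with earlier results of these data known. The genes named are the 10 carriers of highest level, every carrier past the threshold in a test, the most abundant carrier of each role list and at most 3 called genes of each pathway list, apart from those said to be chosen after their values were seen. The result for 1 gene of a pathway list is not reported here.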

Additional observations from a re-analysis of the deposited data

Results flagged for a closer look

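In 5 of 72 groups of values checked, 1 fish lay far from the others of its group, and chance gives about 1 in 20. All 5 lay on the high side, and whether that rate holds for CPM values was not tested. SLC25A38 (ENSDARG00000059805) had 267 CPM in low-dose replicate 7, with the next fish at 100 CPM, and 291 CPM in 3-year replicate 4, with the next at 31.2 CPM. SLC25A33 had 243 CPM in high-dose replicate 1, with the next at 141 CPM. slc25a22a had 7.78 CPM in 3-year replicate 4, with the next at 5.35 CPM. SLC25A12 had 19.1 CPM in high-dose replicate 7, with the next at 11.8 CPM, and that library had the highest intestine score, 7.64.

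The dose change differed between the fish number runs for 6 carriers by the interaction test in edgeR, given as upper minus lower run on the log2 scale. The difference was 2.58 for SLC25A25 (ENSDARG00000035468), 1.49 for slc25a22a and 1.31 for SLC25A1 (ENSDARG00000076381). It was −2.62 for SLC25A36, −1.69 for SLC25A42 and −1.43 for SLC25A17. What separates the runs is not stated in the labels, and the part of intestinal RNA in these differences was not tested.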

How the results depend on the processing

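No paired analysis was possible because the fish numbers are not shared between groups. Levels by RefSeq coding length were not run, since no sequence table was given. No carrier past the threshold changed direction in any alternative run, and the share of SLC25A5 was 64.6% by library size. The cause of the changes below was not tested. Some alternatives use fewer libraries or more genes by construction.

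With age, where 278 genes and 2 carriers passed, DESeq2 called 1197 genes and 6 carriers, voom 853 and 5, and the number run as covariate 540 genes. The upper run alone gave 30 genes and 1 carrier, no filter 0 carriers, and leaving out libraries of intestine score above 2 gave 4 genes and 0 carriers. With dose, where 1760 genes and 7 carriers passed, DESeq2 called 2706 and 11, voom 3985 and 13, and no filter 1131 and 3. The lower run alone gave 5291 and 17, the upper run alone 0 and 0, and libraries of score up to 2 gave 169 and 1. Without the libraries of score above 4, a limit chosen after seeing the data, 0 carriers passed with age, 2 with dose and 0 of the 6 interactions, and 80 genes passed the interaction, which called 680 without a filter and 1089 with it. Leaving out 1 library at a time gave 115 to 559 genes and 0 to 2 carriers with age, 909 to 2518 and 2 to 11 with dose, and 516 to 2048 and 2 to 10 for the interaction. Carriers with few counts are limited by depth, and 8 members entered no test because too few fish had enough counts.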
